A study of Mus musculus with 16 samples.

Results

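Among the 24454 genes counted in mouse *gastrocnemius* muscle, 9 genes that were strongly raised by AICAR are described here. They are *Ifi30*, *Ntsr2*, *Nsun2*, *Jpt1*, *1700001L05Rik*, *Mast1*, *Rprml*, *Clec4d* and *Cspg5*. They are given by name and were chosen by the size and consistency of their log2 fold change between AICAR and vehicle in earlier fits of these same libraries. Their AICAR responses, and the difference of these responses between genotypes, are therefore given as a description and without a test. All 9 passed the filter on low counts, which left 15487 genes, *Clec4d* through its AICAR libraries, since it had 2 to 8 reads in each vehicle library.

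Muscle was taken from 16 mice aged 3 months, and each library was made from the muscle of 1 mouse. HSALR mice carry a human skeletal actin transgene with long CTG repeats, which is expressed in skeletal muscle and serves as a model of myotonic dystrophy type I. They were homozygous for the transgene and came from the single line LR20b, so effects of the repeats and of this insertion cannot be told apart. Control mice were wild-type FVB/N, the background strain of the line. Of the HSALR mice, 5 had received vehicle and 5 had received AICAR at 500 mg/kg for 7 days, and of the control mice 3 had received vehicle and 3 AICAR. The total counts ranged from 64890014 to 81987726 per library. The 6 muscle fibre markers, including *Acta1*, *Ckm* and *Myh4*, summed to between 101149 and 148673 CPM (counts scaled to a common library size) in every library. Epidermal marker genes were above 10 CPM in sum in 6 libraries, 4 of them from HSALR mice given vehicle.

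AICAR is a nucleoside that cells take up and phosphorylate to ZMP, which mimics AMP and switches on the AMP-activated protein kinase (AMPK). In skeletal muscle, AMPK is activated by exercise and energy stress, promotes glucose uptake and fatty acid oxidation, and changes transcription through coactivators and transcription factors. The 9 genes are not parts of 1 pathway. *Ifi30* and *Clec4d* are best known from antigen-presenting and other myeloid cells, while *Ntsr2*, *Mast1* and *Cspg5* are best known from the nervous system. *Nsun2* and *Jpt1* are expressed in many tissues, *Rprml* is a little-studied gene related to the cell cycle gene *Rprm*, and *1700001L05Rik* is a long non-coding RNA.

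The promoters are shown first, since genes that moved together can be compared there in sequence. RefSeq (GRCm38.p6) gave a promoter of 300 bases, from 250 bases before to 50 bases after the start, for 8 of the 9 genes, and *Cspg5* had no entry. The E-box CACGTG, the palindrome bound by USF factors and by the TFEB family of lysosomal regulators, stood in 3 of these 8 promoters, those of *Ifi30*, *Ntsr2* and *1700001L05Rik*, while 7.15% of all 32851 promoters hold it. These 3 promoters are printed 5′ to 3′ with the E-boxes in capitals, on the strand of the gene. The *Ifi30* promoter is chr8:70766614-70766913 on the minus strand, the *Ntsr2* promoter is chr12:16653220-16653519 on the plus strand, and the *1700001L05Rik* promoter is chr15:83367248-83367547 on the minus strand.
Ifi30: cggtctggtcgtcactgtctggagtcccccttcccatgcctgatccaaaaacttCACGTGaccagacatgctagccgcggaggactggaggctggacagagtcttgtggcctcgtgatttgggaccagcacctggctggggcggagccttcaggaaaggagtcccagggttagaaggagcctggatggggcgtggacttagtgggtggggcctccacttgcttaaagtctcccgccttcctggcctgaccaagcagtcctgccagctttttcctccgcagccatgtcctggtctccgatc
Ntsr2: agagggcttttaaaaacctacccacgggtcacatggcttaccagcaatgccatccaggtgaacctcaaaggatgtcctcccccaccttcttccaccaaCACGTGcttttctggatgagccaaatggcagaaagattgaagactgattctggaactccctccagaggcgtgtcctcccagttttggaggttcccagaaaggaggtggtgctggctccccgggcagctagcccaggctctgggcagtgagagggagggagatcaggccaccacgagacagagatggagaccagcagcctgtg
1700001L05Rik: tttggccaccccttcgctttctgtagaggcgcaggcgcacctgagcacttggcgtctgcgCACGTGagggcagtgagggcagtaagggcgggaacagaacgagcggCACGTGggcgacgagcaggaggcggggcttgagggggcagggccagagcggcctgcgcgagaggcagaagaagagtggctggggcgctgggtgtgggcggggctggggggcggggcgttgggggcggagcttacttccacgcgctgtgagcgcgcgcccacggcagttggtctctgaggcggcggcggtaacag
The E-box began 196 bases before the start in *Ifi30* and 152 bases before it in *Ntsr2*, and *1700001L05Rik* held a pair, at 190 and 144 bases before the start. The promoters of *Nsun2*, *Jpt1*, *Mast1*, *Rprml* and *Clec4d* did not hold these letters. A match is a description of the sequence and not evidence of binding.

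The other motifs were searched on both strands as well. The GC box GGGCGG was found in 5 of 8 promoters (*Ifi30*, *Jpt1*, *1700001L05Rik*, *Mast1* and *Rprml*), beside 35.7% of all promoters. The core TGACG of the cyclic AMP response element, which is contained in the full element, stood in *Ifi30* and *Jpt1*, beside 20.8% of promoters, and the full element TGACGTCA in none of the 8, beside 1.79%. The CCAAT box was found in *Jpt1* and *Mast1* (37.4% of promoters), the NRF1 motif GCGCNNGCG in *Nsun2* and *1700001L05Rik* (12.1%), the STAT motif TTCNNNGAA in *Ntsr2* and *Rprml* (8.30%), the AP-1 motif TGANTCA in *Rprml* (7.81%) and the TATA box TATAAA in *Jpt1* (13.6%). The letters searched for NR4A receptors (AAAGGTCA, 1.51% of promoters), ERR receptors (TCAAGGTCA, 0.423%), FOXO factors (GTAAACA, 3.65%), PU.1 (GAGGAAGT, 3.20%), ATF4 and CEBP (TGATGNAA, 3.97%) and the left and right parts of the REST site (TTCAGCACC, 0.371%, and GGACAGCGC, 0.405%) were in none of the 8 windows. The 8 promoters also differed in base composition, from 36.0% GC and no CpG in *Clec4d* to 70.3% GC and 30 CpG in *1700001L05Rik*, where the median of all promoters was 52.7% GC and 7 CpG. The *Mast1* entry lies at chr8:84937304-84937603, inside the span of the gene, and therefore belongs to an internal start.

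In all 9 genes, every mouse given AICAR stood above every mouse given vehicle, in HSALR and in control muscle alike. Groups apart in this way were found for 10.2% of the tested genes in HSALR, for 18.1% in control mice and for 6.52% in both, so the size of the step says more than the lack of overlap. In both genotypes 35 tested genes, or 0.226%, had a lowest AICAR mouse at least 2-fold above the highest vehicle mouse, and these included all 9. By the smaller of the separations in the 2 genotypes *Ifi30* stood first, and in the fit of all libraries *Mast1* and *Rprml* had the largest differences in response between the genotypes. In the libraries low in epidermal markers the largest was that of *Clec4d* (1.93), and over all alternatives the difference ran from 1.27 to 1.89 in *Mast1* and from 1.19 to 2.01 in *Rprml*. Because the genes were chosen by this response, nothing further is read from these shares.

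*Ifi30* and *Clec4d* are the members known from immune cells. *Ifi30* (chr8:70762773-70766663, all positions in GRCm38) encodes GILT, a thiol reductase of the lysosome that opens disulfide bonds of proteins before their presentation on MHC class II. Levels are given here as CPM after TMM scaling, in the order of the mouse numbers. *Ifi30* stood at 9.20, 8.12 and 7.50 CPM in the control mice given vehicle, at 127, 155 and 227 in the control mice given AICAR, at 6.60, 7.19, 6.60, 8.60 and 6.72 in the HSALR mice given vehicle and at 141, 113, 111, 145 and 145 in the HSALR mice given AICAR. Every AICAR mouse was far above every vehicle mouse, the lowest AICAR mouse being 12.9-fold above the highest vehicle mouse in HSALR muscle and 13.8-fold in control muscle. The fitted log2 fold change was 4.20 (SE 0.16) in HSALR and 4.36 (SE 0.20) in control mice, or 18.3-fold and 20.5-fold. 

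*Clec4d* (chr6:123262107-123275268) encodes the macrophage C-type lectin MCL, a receptor of myeloid cells for microbial glycolipids. After vehicle it was at the lower end of what was counted, at 0.0996, 0.0510 and 0.0679 CPM in control and 0.0417, 0.0680, 0.0296, 0.0975 and 0.0800 CPM in HSALR mice. These levels rest on 16 reads in the 3 control libraries (95% exact Poisson interval 9.15 to 26.0) and 24 reads in the 5 HSALR libraries (15.4 to 35.7), and the intervals cover counting error only. After AICAR it stood at 0.469, 2.05 and 1.56 CPM in control and at 2.59, 3.16, 0.569, 1.82 and 2.84 CPM in HSALR mice. No vehicle mouse reached an AICAR mouse, but the AICAR mice themselves spread widely, over 5.55-fold in HSALR and 4.38-fold in control mice, the widest spread of the 9 genes in each genotype. The log2 fold change was 5.06 (SE 0.53) in HSALR and 4.21 (SE 0.68) in control mice, with the largest standard error of the 9 genes in both. In bulk muscle, a change in the number of cells that express such a gene and a change in its RNA per cell cannot be told apart.

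The 3 genes known from the nervous system differed in level. *Ntsr2* (chr12:16653443-16660236) encodes neurotensin receptor 2, a G protein-coupled receptor of brain neurons and astrocytes. It stood at 1.66, 2.17 and 1.37 CPM after vehicle and at 11.4, 12.7 and 14.8 CPM after AICAR in control mice. In HSALR mice it stood at 2.21, 2.51, 2.06, 2.46 and 2.29 CPM after vehicle and at 15.1, 15.0, 13.3, 17 and 18.3 CPM after AICAR. The groups were apart in both genotypes, and mice of 1 group lay close together. The log2 fold change was 2.77 (SE 0.12) in HSALR and 2.90 (SE 0.16) in control mice.

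*Mast1* (chr8:84911853-84946177) encodes a serine/threonine kinase that binds microtubules and is enriched in the brain. It was low after vehicle, at 0.156, 0.255 and 0.326 CPM in control and 0.111, 0.231, 0.148, 0.231 and 0.133 CPM in HSALR mice. After AICAR it stood at 1.61, 1.60 and 2.05 CPM in control and at 3.00, 3.33, 3.09, 4.33 and 4.42 CPM in HSALR mice. The HSALR mice given AICAR were all above the control mice given AICAR, while the vehicle mice of the genotypes overlapped. The rise was 20.9-fold in HSALR (log2 fold change 4.39, SE 0.23) and 7.06-fold in control mice (log2 fold change 2.82, SE 0.29), a difference of 1.57 on the log2 scale (SE 0.36).

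*Cspg5* (chr9:110243783-110262576) encodes neuroglycan C, a transmembrane chondroitin sulfate proteoglycan of the brain. It stood at 0.185, 0.102 and 0.136 CPM in control and 0.264, 0.149, 0.0889, 0.0122 and 0.120 CPM in HSALR mice given vehicle. These are 31 reads over 3 libraries (95% exact Poisson interval 21.1 to 44.0) and 46 reads over 5 libraries (33.7 to 61.4). It stood at 1.51, 2.00 and 2.58 CPM in control and 2.89, 2.23, 2.08, 2.63 and 3.24 CPM in HSALR mice given AICAR. As for *Mast1*, vehicle mice held few reads, and all 8 AICAR mice stood well above them. The log2 fold change was 4.36 (SE 0.38) in HSALR and 3.84 (SE 0.49) in control mice.

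*Nsun2* and *Jpt1* were already abundant after vehicle. *Nsun2* (chr13:69612016-69635780) encodes a methyltransferase that places 5-methylcytosine on tRNAs and other RNAs. It stood at 71.8, 67.2 and 75.7 CPM after vehicle and 248, 299.6 and 369 CPM after AICAR in control mice. In HSALR mice it stood at 71.8, 86.7, 79.6, 69.7 and 77.7 CPM after vehicle and 339, 307, 306, 350.1 and 362 CPM after AICAR. Its rise had nearly the same size in both genotypes, 4.32-fold in HSALR (log2 fold change 2.11, SE 0.10) and 4.27-fold in control mice (log2 fold change 2.09, SE 0.12). *Jpt1* (chr11:115497345-115514393), formerly *Hn1*, encodes a small protein named after the microtubule-associated protein Jupiter of the fruit fly. It stood at 33.7, 35.3 and 30.5 CPM in control and 36.3, 40.5, 32.8, 31.5 and 31.7 CPM in HSALR mice given vehicle, and at 123, 149 and 183 and 181, 172, 144, 161 and 186 CPM in those given AICAR. The log2 fold change was 2.29 (SE 0.11) in HSALR and 2.20 (SE 0.14) in control mice, again without overlap of the groups.

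*1700001L05Rik* (chr15:83353847-83367297) is annotated as a long non-coding RNA, and no function is given here. It stood at 0.299, 0.434 and 0.380 CPM after vehicle and 1.86, 1.45 and 2.16 CPM after AICAR in control mice. In HSALR mice it stood at 0.668, 0.516, 0.563, 0.512 and 0.466 CPM after vehicle and 3.03, 2.53, 3.36, 2.68 and 2.78 CPM after AICAR. HSALR mice were above control mice under both treatments, without overlap. The log2 fold change with AICAR was 2.40 (SE 0.15) in HSALR and 2.29 (SE 0.20) in control mice.

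*Rprml* (chr11:103649509-103650580) is a gene with a single exon whose product resembles Reprimo, a mediator of p53-dependent cell cycle arrest. It stood at 0.213, 0.459 and 0.530 CPM in control and 0.362, 0.313, 0.237, 0.414 and 0.173 CPM in HSALR mice given vehicle. After AICAR it stood at 2.06, 2.15 and 2.49 CPM in control and 5.79, 3.85, 6.20, 4.79 and 6.88 CPM in HSALR mice. As for *Mast1*, the genotypes overlapped after vehicle and were apart after AICAR. The rise was 18.2-fold in HSALR (log2 fold change 4.18, SE 0.26) and 5.53-fold in control mice (log2 fold change 2.47, SE 0.31), and the difference was 1.72 on the log2 scale (SE 0.40).

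**Figure D1:**
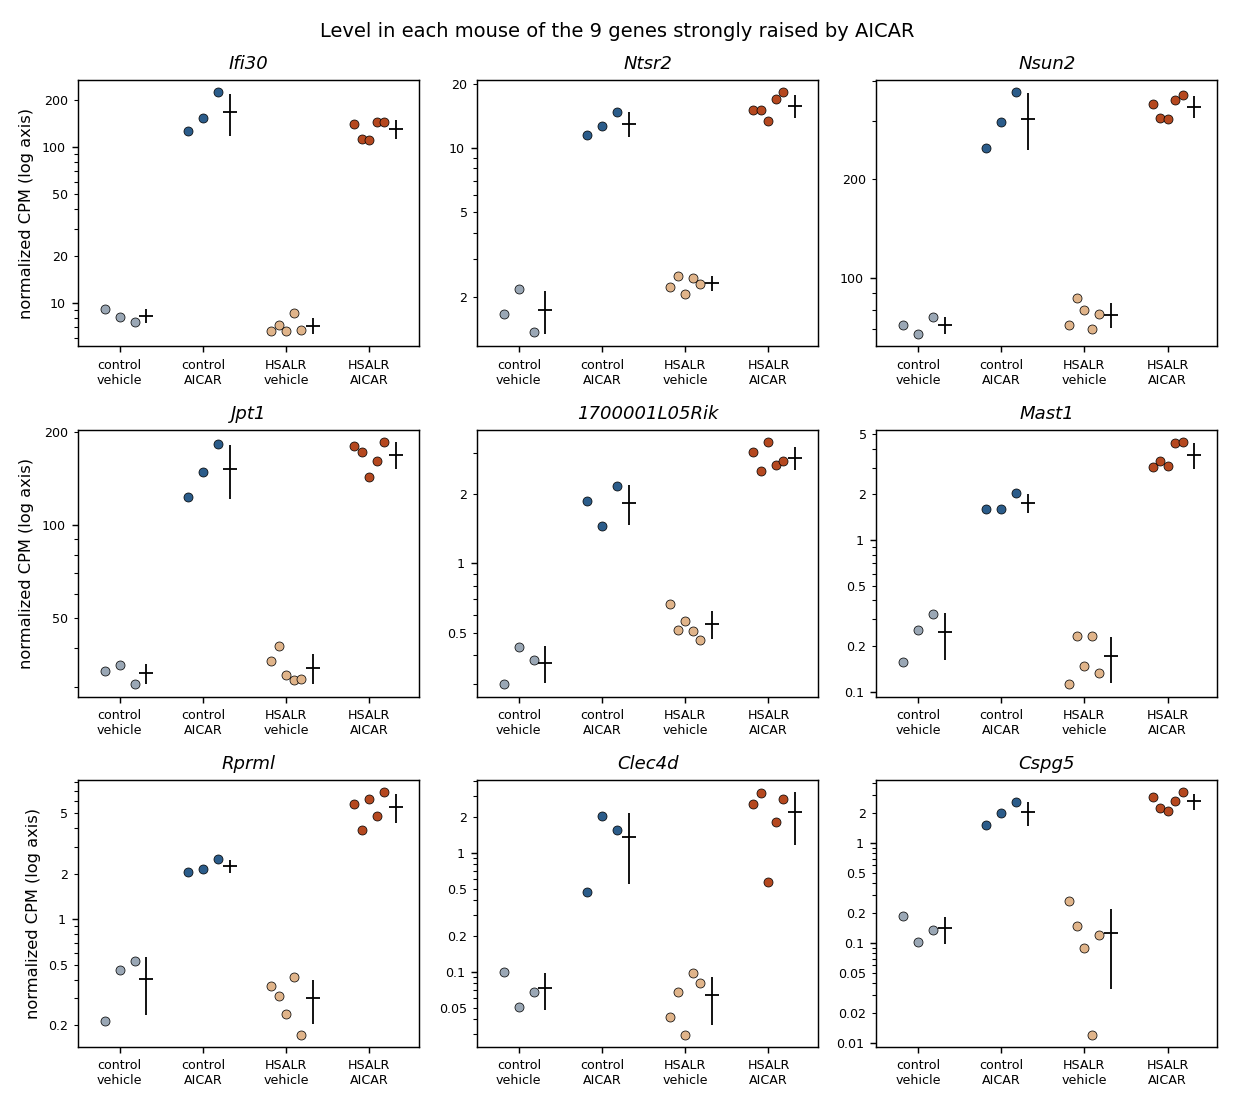
Normalized CPM (log axis) of each of the 9 genes in every mouse, by group; points are mice, and the bar beside them is the mean ± SD of the 3 control or 5 HSALR mice. In every panel all AICAR mice lie above all vehicle mice of both genotypes.

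Per kilobase of transcript, the levels of the genes can be set beside each other. In control mice given vehicle, *Jpt1* was highest, at 24.4 ± 1.77 CPM per kb (SD, n = 3), before *Nsun2* at 16.7 ± 0.994, *Ifi30* at 8.44 ± 0.879, *Ntsr2* at 1.12 ± 0.260 and *Rprml* at 0.374 ± 0.155. The last 4 were *1700001L05Rik* at 0.0618 ± 0.0113, *Clec4d* at 0.0545 ± 0.0185, *Mast1* at 0.050 ± 0.0173 and *Cspg5* at 0.0364 ± 0.0108 CPM per kb, and neighbours in this order differed by less than the larger of their SDs. After AICAR the order changed at both ends. In HSALR mice given AICAR, *Ifi30* was highest at 134 ± 17.8 CPM per kb (SD, n = 5), within 1 SD of *Jpt1* at 124 ± 12.5, and *Nsun2* followed at 77.8 ± 5.97. *Ntsr2* at 10.2 ± 1.25, *Rprml* at 5.13 ± 1.11 and *Clec4d* at 1.64 ± 0.775 came next, and *Mast1* at 0.738 ± 0.140, *Cspg5* at 0.675 ± 0.123 and *1700001L05Rik* at 0.479 ± 0.0543 CPM per kb were lowest. In control mice given AICAR, *Ifi30* stood at 173 ± 52.6, *Jpt1* at 112 ± 22.2 and *Nsun2* at 71.4 ± 14.2 CPM per kb (SD, n = 3).

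Within all genes tested, the 9 stood at the upper end of the AICAR response. Their log2 fold changes ranked 4 to 57 of 15487 in HSALR and 6 to 78 in control mice, with medians of 4.18 and 2.82, beside medians of -0.02 and -0.01 over all genes tested. Of the 27 genes with a mean count of at least 50 whose AICAR and vehicle mice were at least 2-fold apart in both genotypes, the 9 held ranks 1 to 5, 7, 9, 11 and 12 when ordered by the smaller of their 2 separations. The list is thus not complete, since *Dgkeos*, *C2cd4c* and *Slc35g1* stood among them at ranks 6, 8 and 10.

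**Figure D2:**
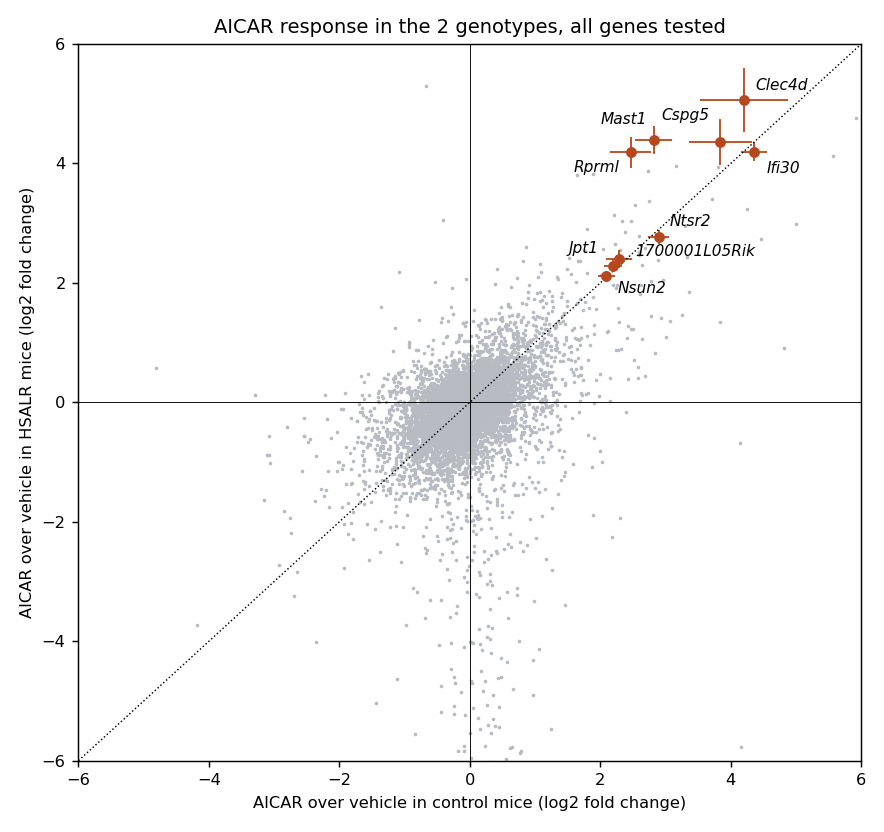
Log2 fold change of AICAR over vehicle in control mice (x axis) and in HSALR mice (y axis) for all genes tested (grey; 98 genes lie outside the axes, which end at 6), with the 9 genes in red ± SE and the line of equal response dotted. *Ifi30*, *Ntsr2*, *Nsun2*, *Jpt1* and *1700001L05Rik* lie close to the line, while *Mast1* and *Rprml* lie above it by 1.57 and 1.72.

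As a description, the 5 largest log2 fold changes of called genes without overlap and with a mean count of at least 50 were those of *Clec4d*, *Mast1*, *Cspg5*, *Ifi30* and *Rprml* in HSALR mice. That they are all among the 9 follows from how these were chosen, and *Clec4d* passed the filter through its AICAR libraries. In control mice the same rule gave *Ifi30*, *Nr4a3*, *Clec4d*, *Clca4a* and *Cspg5*. *Nr4a3*, an orphan nuclear receptor induced by exercise, had a log2 fold change of 4.26 in control mice, beside 2.55 in HSALR mice. *Clca4a*, of a family of chloride channel accessory proteins, rose by 4.14 in control mice and had a value of -0.67 in HSALR mice.

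The size of the response varied between mice in a way that several genes shared. Of the 3 control mice given AICAR, the mouse numbered S449 in the labels had the highest level in 8 of the 9 genes and S447 the lowest in 7. S449 also had the lowest TMM factor of the 16 libraries (0.906, beside 1.00 in S447 and 1.04 in S448), which raises the CPM of all its genes. How often S449 was highest over all genes was not counted, and the part of scaling in this order was not tested. Of the 5 HSALR mice given AICAR, S463 was highest in 6 genes and S460 was lowest in 6, namely *Ifi30*, *Ntsr2*, *Nsun2*, *Jpt1*, *Clec4d* and *Cspg5*. Mouse S460 was at the other end for *1700001L05Rik*, where it was highest. Excepting *Clec4d*, the responses of the AICAR mice of 1 genotype lay within 1.79-fold of each other for every gene.

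**Figure D3:**
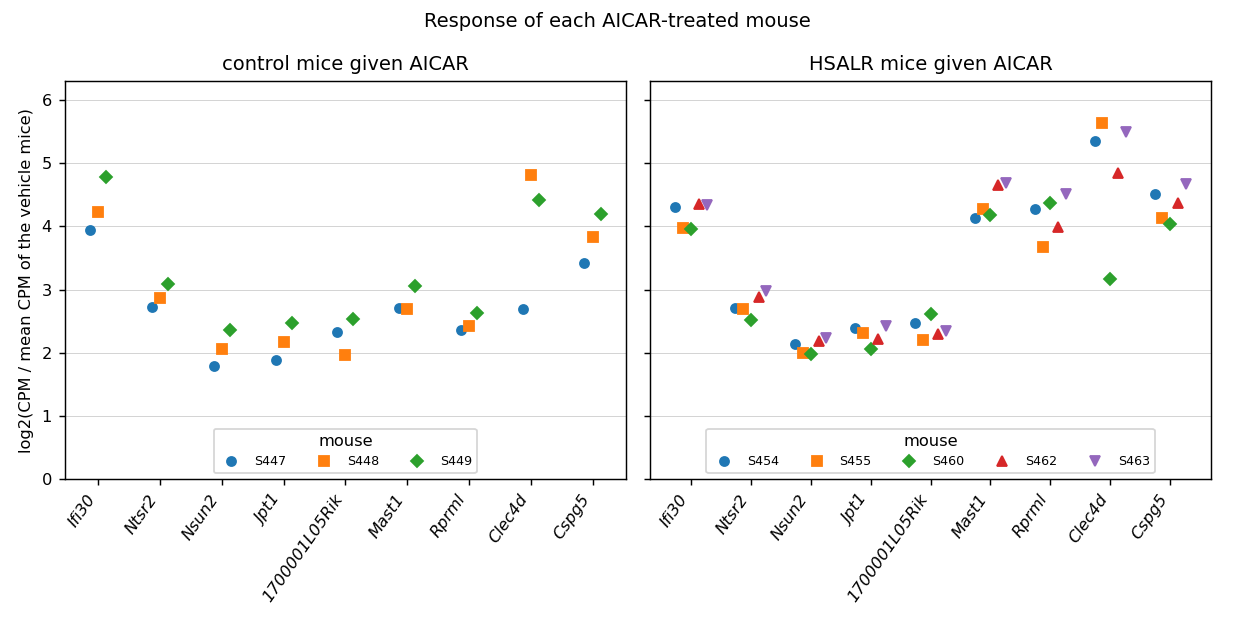
Log2 ratio of the CPM of each AICAR-treated mouse to the mean CPM of the vehicle mice of its genotype, for each of the 9 genes, with 3 control mice (left) and 5 HSALR mice (right). Mouse S449 stands highest in 8 genes among control mice, and *Clec4d* has the widest spread in both panels.

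After the group means were removed, the deviations of the 36 pairs of genes over the 16 mice had correlations from -0.58 (*1700001L05Rik* with *Clec4d*) to 0.71 (*Nsun2* with *Jpt1*), with a median of 0.19. The 6 pairs within *Ifi30*, *Ntsr2*, *Nsun2* and *Jpt1* ranged from 0.35 to 0.71. *Mast1* and *Rprml* had a value of 0.57, and *1700001L05Rik* and *Rprml* of 0.61. These values share the libraries and their scaling and carry no test.

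The genes most like each member over all 16 libraries were often other members. By Pearson's r of log2 CPM, among tested genes with a mean count of at least 50, *Nsun2* and *Jpt1* were most like each other (0.995), *Ntsr2* was most like *Jpt1* (0.990), *Ifi30* most like *Nsun2* (0.988), and *Mast1* and *Rprml* most like each other (0.983). Other genes among the 3 closest were *Nudt19* for *Ifi30* (0.987) and *Nsun2* (0.989), *Gpi1* for *Ntsr2* (0.980), *Car14* (0.977) and *Cdt1* (0.971) for *1700001L05Rik*, *Ddx59* (0.973) for *Mast1*, and *Orai2* (0.969) and *Donson* (0.963) for *Rprml*. For *Clec4d* they were *Pdhb* (0.968), *Atp5g1* (0.967) and *Plpbp* (0.965), and for *Cspg5* they were *Pdha1* (0.963), *Gnpat* (0.958) and *Gm44504* (0.956). *Pdhb* and *Pdha1* encode subunits of pyruvate dehydrogenase, and *Atp5g1* a subunit of ATP synthase, but their responses were far smaller, with log2 fold changes of 0.83, 0.60 and 0.61 in HSALR mice. These coefficients are dominated by the step from vehicle to AICAR, which all these genes share.

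HSALR mice were compared with control mice given the same treatment by the edgeR quasi-likelihood test with Benjamini-Hochberg adjustment over all genes and by a two-sided exact permutation test of CPM, whose smallest possible p with 5 against 3 mice is 0.0357. After vehicle 2 of the 9 genes passed the edgeR test, both higher in HSALR, beside 15.4% of all genes tested that were higher and 26.9% called in either direction. These were *1700001L05Rik*, with a log2 fold change of 0.55 (SE 0.18, edgeR adjusted p = 0.0369, exact p = 0.0357) and no overlap of the groups, which held for 16.8% of all genes, and *Ntsr2*, with 0.41 (SE 0.14, edgeR adjusted p = 0.0469, exact p = 0.0714). Among the other 7 the values ran from -0.51 in *Mast1* (SE 0.29, edgeR adjusted p = 0.206) to 0.11 in *Nsun2* (SE 0.11, edgeR adjusted p = 0.508). *Clec4d*, with few reads after vehicle, is among these 7. The comparison after vehicle shares its vehicle mice with the contrasts by which the genes were chosen. With scaling to *Tbp*, which called 34.2% of all genes in this comparison and 32.6% higher, 3 passed, *Nsun2* being the third (edgeR adjusted p = 0.0232, range over its alternatives 0.0232 to 0.937). Neither the call of *Ntsr2* nor that of *1700001L05Rik* was stable: *Ntsr2* passed in 10 and *1700001L05Rik* in 16 of 26 alternative fits, neither passed with limma voom, without the filter on low counts or in a fit of only these groups, and leaving out any of the vehicle mice S445, S450, S451 or S452 ended both. The log2 fold change of *1700001L05Rik* was 0.54 with voom, 0.55 without the filter and in the fit of only these groups and 0.85 in the libraries low in epidermal markers. That of *Ntsr2* was 0.43, 0.41 and 0.41 in the same fits, and it was 0.27 without S450 and 0.20 in the libraries low in epidermal markers.

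After AICAR 3 of the 9 genes passed the edgeR test between genotypes, all higher in HSALR mice, beside 12.2% of all genes tested that were higher and 21.8% called in either direction. *Rprml* had a log2 fold change of 1.30 (SE 0.26, edgeR adjusted p = 0.00254, exact p = 0.0357), *Mast1* of 1.05 (SE 0.23, edgeR adjusted p = 0.00424, exact p = 0.0357) and *1700001L05Rik* of 0.66 (SE 0.16, edgeR adjusted p = 0.00972, exact p = 0.0357). In all 3 the 5 HSALR mice stood above the 3 control mice, as was the case for 15.0% of all genes tested. *Ifi30* was lower in HSALR mice without passing the test, at -0.37 (SE 0.15, edgeR adjusted p = 0.0963, exact p = 0.250), and it passed when the control mouse S447 was left out (edgeR adjusted p = 0.0261, range over the alternatives 0.0261 to 0.627). *Nsun2* at 0.12 (SE 0.11), *Jpt1* at 0.15 (SE 0.12), *Ntsr2* at 0.28 (SE 0.13), *Cspg5* at 0.36 (SE 0.36) and *Clec4d* at 0.69 (SE 0.47) did not pass. *Mast1* and *Rprml* passed in every alternative fit that held them, while *1700001L05Rik* no longer passed without the control mouse S448 (0.51, edgeR adjusted p = 0.0566) or with scaling to *Tbp* (0.62, edgeR adjusted p = 0.0617), the adjusted p running from 0.00126 to 0.0700 over its alternatives. These comparisons share their AICAR mice with the contrasts by which the genes were chosen.

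**Figure D4:**
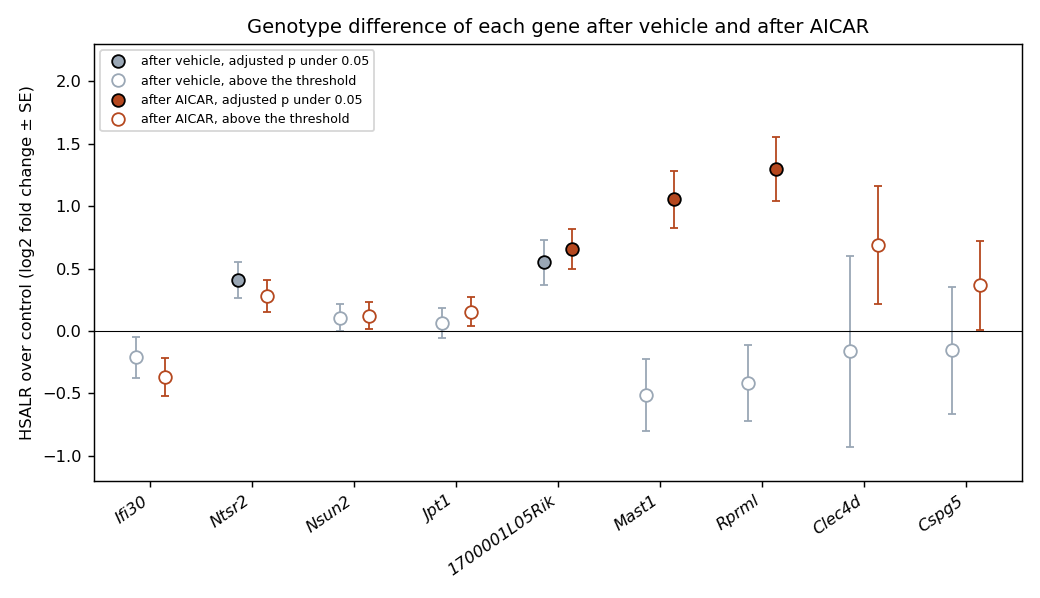
Log2 fold change ± SE of HSALR over control mice for each gene after vehicle (grey) and after AICAR (red); filled points have an adjusted p under 0.05. *Mast1* and *Rprml* go from -0.51 and -0.42 after vehicle to 1.05 and 1.30 after AICAR, while *1700001L05Rik* is higher in HSALR under both treatments.

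The genes related to the 9 members were taken from lists. Of the 13 genes of MHC class II presentation and lysosomal antigen processing, the pathway of *Ifi30*, 12 were tested, and 1 rose in HSALR and 0 in control mice, beside 13.7% and 8.40% of all genes that were higher. In control mice 0 were higher and 1 lower at an unadjusted p under 0.05, and DESeq2 called 1 lower and limma voom 0. In HSALR mice DESeq2 also called 1 lower, and in the libraries low in epidermal markers edgeR called 0 in either genotype, with 2 higher in HSALR mice and 6 lower in control mice at an unadjusted p under 0.05. The gene that rose in the fit of all libraries was *Ctsb*, a lysosomal protease, with a log2 fold change of 0.25 (edgeR adjusted p = 0.00409). *Cd74*, the invariant chain of class II, had values of -0.33 in HSALR and -0.70 in control mice and did not pass, and the medians of the list were -0.30 and -0.48. Of 8 tested genes of RNA cytosine-5 methylation other than *Nsun2*, *Nsun4*, which methylates mitochondrial ribosomal RNA, rose in both genotypes (0.43 in HSALR, edgeR adjusted p = 2.8e-05, and 0.31 in control mice, edgeR adjusted p = 0.00534). *Ybx1*, a reader of the mark, rose in HSALR mice (0.30, edgeR adjusted p = 5.9e-04). At an unadjusted p under 0.05 by edgeR, 2 were higher and 2 lower in HSALR mice, and 2 higher and 1 lower in control mice. DESeq2 called 2 higher and 1 lower in HSALR mice, and 2 higher in control mice. The medians of the list were -0.02 in HSALR and 0.04 in control mice. Of the 8, in the libraries low in epidermal markers, 1 was called higher in HSALR and 0 in control mice, where 2 were higher at an unadjusted p under 0.05. The shares of all genes that were higher were 13.7% and 8.40% in the fit of all libraries and 2.78% and 3.15% in these libraries.

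Relatives of the genes known from the nervous system, and of *Rprml* and *Jpt1*, gave these values. Of the 4 other MAST kinases 0 rose in either genotype by edgeR, DESeq2 or limma voom, 1 was higher in control mice at an unadjusted p under 0.05, and *Mast4* fell in control mice by 0.51 on the log2 scale (edgeR adjusted p = 0.0308), beside 4.77% of all genes that were lower, a call not made in the libraries low in epidermal markers, while *Mast2* was at 0.13, *Mast3* at -0.06 and *Mastl* at 0.40 in HSALR mice. Of the neurotensin system, the ligand gene *Nts* (0.67 in HSALR, SE 0.28, edgeR adjusted p = 0.0845, unadjusted p under 0.05) and the receptor *Sort1* (0.04, edgeR adjusted p = 0.812) did not pass, and *Ntsr1* was under the filter. The chondroitin sulfate proteoglycan genes tested beside *Cspg5* were *Cspg4*, *Vcan* and *Ptprz1*, and all 3 fell in HSALR mice, by 0.35, 0.72 and 0.86 on the log2 scale (edgeR adjusted p = 0.0410, 7.6e-04 and 0.00121), beside 13.0% of all genes that were lower. In the libraries low in epidermal markers 2 of the 3 were called lower, beside 2.99% of all genes in that fit, and the epidermal markers themselves fell in this contrast, their part in it not being tested. In control mice 0 of the 3 were called by edgeR, DESeq2 or limma voom and 1 was lower at an unadjusted p under 0.05. The difference of the AICAR effects between the genotypes was not called for any of the 3, and *Ptprz1* was lower in HSALR than in control mice after AICAR (-0.54, edgeR adjusted p = 0.0455). The brain proteoglycans *Bcan* and *Ncan*, and *Acan*, were under the filter. *Rprm*, the only other gene of the reprimo family measured, had a log2 fold change of -1.56 in HSALR mice. It passed the filter through the HSALR vehicle libraries in which it is high, and nothing is read from its call. Its mean was 0.205 CPM against 0.0690 after AICAR. It had a value of 0.69 in control mice (edgeR adjusted p = 0.531). *Jpt2* had values of -0.57 in HSALR mice (edgeR adjusted p = 0.052) and -0.01 in control mice. In the fit of all libraries it was not called by edgeR or limma voom in either genotype, while DESeq2 called it lower in HSALR mice.

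*Clec4d* has its neighbours in a lectin cluster of chromosome 6, and their values are given here. Of 11 myeloid C-type lectin and signalling genes, 2 were called higher in HSALR mice, or 1 of 10 without *Clec4e*, from whose call nothing is read, beside 13.7% of all genes that were higher. In control mice 0 rose by any of the 3 tools, 1 was higher at an unadjusted p under 0.05, and *Clec7a* fell (-1.62, edgeR adjusted p = 0.0135, not called in the libraries low in epidermal markers). The genes called higher in HSALR mice were *Clec4n*, encoding Dectin-2, and *Clec4e*, encoding Mincle, the genes on either side of *Clec4d* among those counted. *Clec4n* stood at 0.348, 0.326, 0.208, 0.439 and 0.213 CPM in HSALR mice given vehicle and at 1.17, 1.84, 0.469, 1.12 and 1.91 CPM in those given AICAR, a log2 fold change of 2.07 (edgeR adjusted p = 3.2e-04). In control mice it went from 0.327, 0.281 and 0.299 to 0.455, 0.563 and 0.473 CPM, a log2 fold change of 0.72 that did not pass (edgeR adjusted p = 0.283). Mouse S460 was lowest among the HSALR AICAR mice in both *Clec4n* and *Clec4d*. *Clec4e* had a log2 fold change of 1.83 in HSALR (edgeR adjusted p = 0.0101) and 1.42 in control mice (edgeR adjusted p = 0.247), at 1 to 20 reads per library. It reached 10 reads in 3 HSALR libraries with AICAR and in no other, and so passed the filter through the group where it is high. In the libraries low in epidermal markers, which hold 1 HSALR mouse given vehicle, 0 of the 11 genes were called in HSALR mice by edgeR and 1 was higher at an unadjusted p under 0.05. The genes *Clec4a1*, *Clec4a2* and *Clec4a3* of the same family did not pass in either genotype.

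Of 18 tested genes next to or overlapping a member, 6 rose and 3 fell in HSALR mice, or 5 and 3 of 17 without *Clec4e*, from which nothing is read, beside 13.7% of all genes that were higher and 13.0% that were lower. In control mice 4 rose and 1 fell, beside 8.40% and 4.77% of all genes. In the RefSeq annotation, the span of *Lpin1* overlaps the 5′ end of *Ntsr2*. *Lpin1* encodes a phosphatidate phosphatase and coactivator, and in the GENCODE annotation the genes are apart. It was much more abundant than *Ntsr2* and rose in both genotypes, by 1.41 in HSALR (edgeR adjusted p = 5.2e-05) and 1.17 in control mice (edgeR adjusted p = 0.00344). The non-coding RNA *Gm38426* lies inside the span of *Mast1* in RefSeq, and exons of *Dnase2a* overlap those of *Mast1* on the opposite strand in GENCODE. *Gm38426* rose by 2.14 and 2.01 (edgeR adjusted p = 2.3e-06 and 1.3e-04) and *Dnase2a* fell (-0.44 and -0.47, edgeR adjusted p = 0.00102 and 0.00811). *Gm38426* had a higher mean CPM than *Mast1* in every group. Exons of *Nsun2* overlap *Tent4a* on the opposite strand in GENCODE, and exons of *Ifi30* overlap *6330537M06Rik*, which is not among the genes counted. If strand was not used in counting, reads of such pairs cannot be told apart, so the values of *Ifi30*, *Ntsr2*, *Mast1* and *Nsun2* are uncertain to that extent. *Arfgap3*, beside *1700001L05Rik*, rose by 0.67 and 0.77 (edgeR adjusted p = 2.6e-04 and 0.00173), and *Gosr2*, beside *Rprml*, by 0.19 in HSALR mice (edgeR adjusted p = 0.00598). *Trib2*, on the other side of *Ntsr2*, and *Nt5c*, beside *Jpt1*, fell in HSALR mice (-0.35 and -0.29, edgeR adjusted p = 0.0198 and 0.0273), and *Ube2ql1*, beside *Nsun2*, rose in control mice (1.20, edgeR adjusted p = 0.0239). The genes on both sides of *Ifi30*, *Mpv17l2* and *Pik3r2*, and *Smarcc1* beside *Cspg5* did not pass in either genotype.

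Of 12 muscle genes of AMPK-dependent metabolism, 5 rose in HSALR and 4 in control mice, beside 13.7% and 8.40% of all genes that were higher, and by edgeR 0 fell, with 1 lower at an unadjusted p under 0.05 in each genotype and 1 called lower by DESeq2 in HSALR mice. Without the 6 libraries high in epidermal markers 1 and 2 rose, beside 2.78% and 3.15% of all genes that were higher in that fit. *Hk2*, the hexokinase of glucose uptake, rose by 1.24 in HSALR and 1.60 in control mice (edgeR adjusted p = 1.2e-05 and 5.5e-05). *Ppargc1a*, the coactivator of mitochondrial genes, rose by 0.74 and 1.66 (edgeR adjusted p = 0.0138 and 0.00113). *Vegfa*, the growth factor of blood vessels, rose in control mice (1.08, edgeR adjusted p = 0.0189). *Pdk4*, an inhibitor of pyruvate dehydrogenase, had values of -0.67 and -1.15, and *Lpl*, the lipoprotein lipase, of -0.41 and -0.32, without passing. *Nsun2*, with the smallest log2 fold changes of the 9 members, stood above these values in both genotypes.

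**Figure D5:**
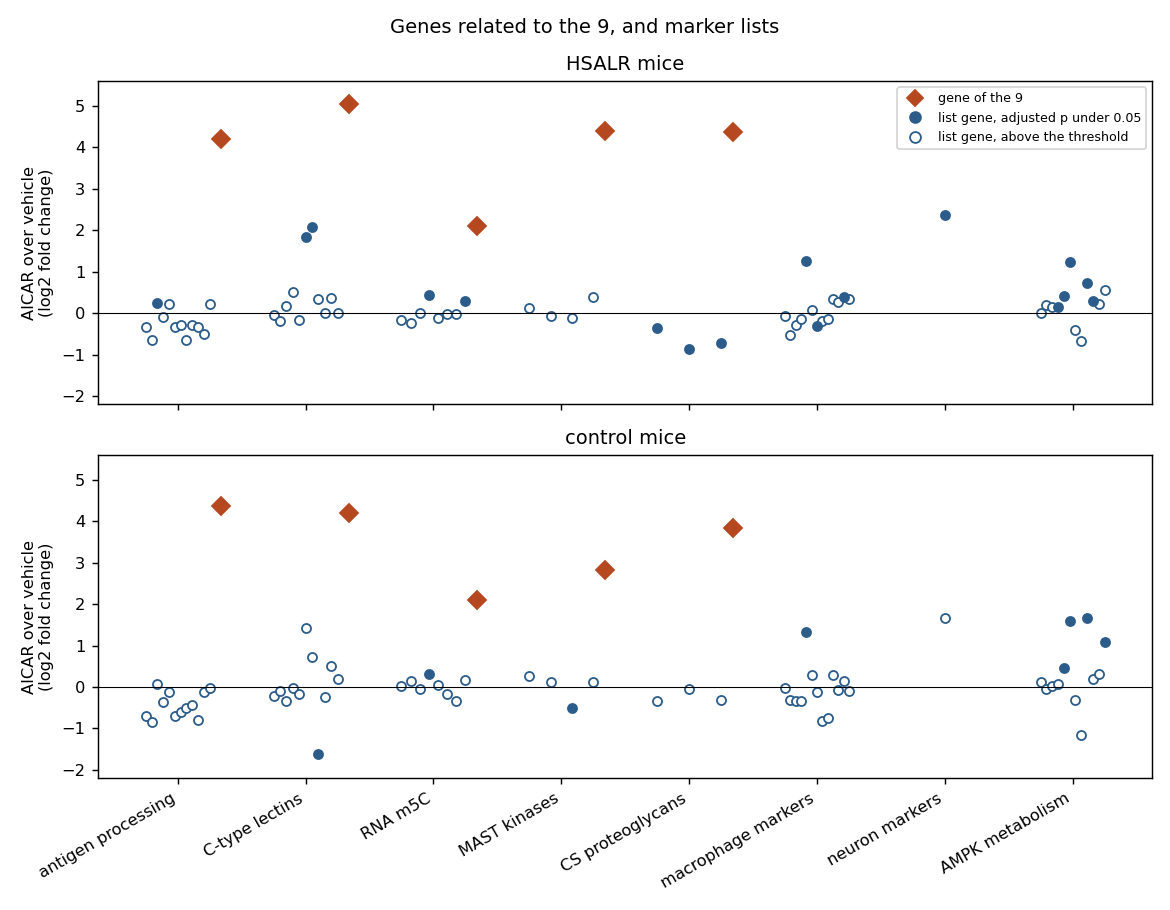
Log2 fold change of AICAR over vehicle in HSALR (top) and control mice (bottom) for genes related to the 9 and for marker lists; filled points have an adjusted p under 0.05, and red diamonds are the members that belong to a list. The members stand at 2.09 or above. Among relatives, *Clec4n* stands at 2.07 in HSALR mice, and nothing is read from the filled points of *Clec4e* and *Tubb3*, which passed the filter through the libraries where they are high.

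Marker lists of other cell types were read beside the members known from myeloid cells and neurons. Of 13 macrophage and monocyte markers 2 rose and 1 fell in HSALR mice, and 1 rose in control mice, beside 13.7% and 8.40% of all genes that were higher and 13.0% and 4.77% that were lower. *Cd14*, a lipopolysaccharide co-receptor, rose by 1.26 and 1.32 (edgeR adjusted p = 6.5e-06 and 1.5e-04), *Mrc1* rose (0.39, edgeR adjusted p = 0.0146) and *Csf1r* fell (-0.32, edgeR adjusted p = 0.0468) in HSALR mice. Of the 13, in the libraries low in epidermal markers, 1 was called higher and 0 lower in each genotype, beside 2.78% of all genes that were higher in HSALR and 3.15% in control mice. *Adgre1*, *Cd68* and *Ptprc* were at -0.06, 0.08 and 0.34 in HSALR mice and did not pass. The summed level of the 13 markers ran from 198 to 266 CPM after vehicle and from 211 to 333 CPM after AICAR in HSALR mice, and from 175 to 237 and 180 to 209.6 CPM in control mice. The 6 neutrophil markers summed to between 0.501 and 4.20 CPM. Of the 6 tested of 6 Schwann cell, 5 of 5 dendritic cell, 4 of 4 adipocyte and 4 of 6 neutrophil markers, 0 were called in either genotype by edgeR, 4 passed an unadjusted p under 0.05 in HSALR and 0 in control mice, and DESeq2 called 1 Schwann cell marker and limma voom 0. Of 6 neuron markers only *Tubb3* passed the filter, through the AICAR libraries where it is high, so nothing is read from its call in HSALR mice (2.37, edgeR adjusted p = 0.00137). Its value in control mice was 1.67 (edgeR adjusted p = 0.0775). In the libraries low in epidermal markers 2 neuron markers were tested, and by edgeR 0 were called in HSALR mice, with 0 higher and 1 lower at an unadjusted p under 0.05. *Snap25*, *Syt1*, *Nefl* and *Rbfox3* were at or below 0.0725 CPM in the mean of every group, and the other marker, *Nefm*, was at 0.0720 CPM after vehicle and 0.132 after AICAR in control mice and at 0.116 and 0.0602 in HSALR mice. With *Tubb3* included, the 6 neuron markers summed to 0.204 to 0.378 CPM after vehicle and 0.384 to 1.32 CPM after AICAR in HSALR mice. In control mice they summed to 0.217 to 0.383 and 0.412 to 0.746 CPM. The mean of *Tubb3* alone went from 0.116 to 0.611 CPM in HSALR and from 0.101 to 0.329 CPM in control mice. Nothing is therefore read from the rise of the sum. The part of such cells in the levels of the 9 genes was not tested.

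Epidermal markers marked out 6 libraries, those of 4 HSALR and 1 control mouse given vehicle and of 1 control mouse given AICAR, with a summed level of 6 keratinocyte genes above 10 CPM and up to 157 CPM. In the 5 HSALR mice given AICAR the sum was at most 0.371 CPM. All 6 markers were called lower with AICAR in HSALR mice by edgeR and by DESeq2, and 0 by limma voom. The same markers define the split of the libraries, and only 2 of the 6 were tested below the limit. Nothing is read from these calls. In the 10 libraries below the limit, of which 1 is an HSALR mouse given vehicle, the 9 genes had log2 fold changes of 2.10 to 5.66 in HSALR and of 2.14 to 4.34 in control mice. The value of *Cspg5* in HSALR mice went from 4.36 to 3.29, and after AICAR *Mast1* and *Rprml* remained called between genotypes (0.99 and 1.27, edgeR adjusted p = 0.0180 and 0.0144), while *1700001L05Rik* no longer passed (edgeR adjusted p = 0.0700).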

How the data were processed

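RNA of *gastrocnemius* muscle was sequenced from stranded libraries of 16 mice. The authors aligned the reads with STAR 2.5.2a (genome build mm10) and counted them per gene with QuasR, and they deposited whole-number counts without normalization for 24454 RefSeq genes with a gene length. Whether strand was used in counting is not given in the sources used here. Entrez identifiers were named through RefSeq (GRCm38.p6), where 24374 matched and 80 did not. Groups follow the labels, and the label CTRL was read as vehicle from the design text. No label gives batches, and p-values measure the spread between these mice.

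Counts were scaled by TMM (factors 0.906 to 1.06) and fitted in R 4.3.3 with edgeR 4.0.16 (filterByExpr, glmQLFit, glmQLFTest, 1 mean per group), with Benjamini-Hochberg adjustment over 15487 genes and a threshold of 0.05, after the script was tested on simulated data. Standard errors are the absolute log2 fold change divided by the root of F. CPM was compared by exact permutation tests in SciPy 1.17.1. Likeness used log2(CPM + 0.01). The members and lists were chosen with earlier results of these data known. Genes named in the text are the members, the 3 genes most like each, their nearest neighbours, called genes of each list and the 5 largest rises per AICAR contrast (1 gene that the rule names is not reported here); *Dgkeos*, *C2cd4c*, *Slc35g1* and the genes overlapping a member and further list genes shown with their values were chosen after their values were seen. Alternatives were DESeq2 1.42.0, limma 3.58.1 with voom, RLE, upper-quartile, library-total and *Tbp* scaling, other filters on low counts, fits restricted to the 2 groups of a contrast, and the omission of each mouse in turn. A fit without the 6 libraries with more than 10 CPM of epidermal markers was added after seeing the data.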

Additional observations from a re-analysis of the deposited data

How the results depend on the processing

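The log2 fold changes of the 9 genes with AICAR stayed positive in every alternative fit. That sign follows from their choice by this response, and nothing is read from it. In all but 15 of these values they moved by less than 1 SD of the response between mice. Their median in HSALR mice, 4.18, was 4.04 to 4.25 when 1 mouse was left out, 2.58 with at least 10 counts in every library, which left out *Mast1*, *Clec4d* and *Cspg5*, and 3.29 in the libraries low in epidermal markers. The median in control mice, 2.82, was 2.59 to 2.88 when 1 mouse was left out, lowest without the vehicle mouse S445, and 2.37 with at least 10 counts in every library. The count of members called between genotypes after vehicle, 2, became 3 with scaling to *Tbp* (*Nsun2* added), which called 34.2% of all genes against 26.9%, 1 with DESeq2, RLE or upper-quartile scaling and 0 with limma voom, without a filter, in a fit restricted to the 2 groups and in the libraries low in epidermal markers, and was 0 to 2 when 1 mouse was left out. After AICAR it was 2 to 4 when 1 mouse was left out, and *Rprml* passed in all 26 and *Mast1* in all 25 fits that held it. Among members not called after vehicle, the sign changed with scaling to *Tbp* in *Ifi30* (0.058), *Clec4d* (0.112) and *Cspg5* (0.132), in the libraries low in epidermal markers in *Rprml* (0.0829) and *Cspg5* (0.885), and when 1 mouse was left out in *Jpt1* (-0.0165 to 0.107, without S452), *Clec4d* (-0.374 to 0.117, without S445 or S453) and *Cspg5* (-0.618 to 0.154, without S445 or S458). After AICAR it changed in *Nsun2* without the control mouse S447 (-0.0076 to 0.280). The causes were not tested.

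Over all genes, 4121 were called with AICAR in HSALR mice, 2039 in control mice, 4169 between genotypes after vehicle, 3379 after AICAR and 107 for the difference of the AICAR effects. Leaving out 1 mouse gave 3146 to 4301, 1143 to 2186, 2829 to 4296, 2214 to 3790 and 15 to 371 genes. The count in control mice moved by over 1.5 times without S445, S448 or S449, that after AICAR without S447, and that for the difference in 12 of 16 fits, lowest without S448 and highest without S460. In control mice 1164 were called in a fit restricted to the 2 groups. Scaling to *Tbp* gave 1396 between genotypes after AICAR and 381 for the difference, for which DESeq2 gave 536. In the libraries low in epidermal markers, where the lone HSALR mouse given vehicle is assumed to vary like the other groups, the counts were 899 and 697 with AICAR, 904 between genotypes after vehicle and 0 for the difference by edgeR, where 1485 genes had an unadjusted p under the threshold. The share of called genes that were higher with AICAR, 51.3% in HSALR and 63.8% in control mice, was 31.0% and 50.7% with library totals, 25.2% and 94.3% with scaling to *Tbp*, and 43.7% and 45.1% with upper-quartile scaling. After vehicle it was 57.2%, 95.4% with *Tbp* and 71.3% in the libraries low in epidermal markers, and for the difference it was 29.9%, 40.7% with upper-quartile and 1.6% with *Tbp* scaling. Scaling to *Tbp* moved the median of all genes to -0.13 and 0.19 with AICAR, 0.28 after vehicle and -0.32 for the difference. No paired analysis was possible because mice of different groups share no number. *Clec4d*, *Cspg5* and *Mast1* rest on few reads after vehicle, which limits the precision of their fold changes. After vehicle *Mast1* had 55 reads in the control libraries (95% exact Poisson interval 41.4 to 71.6) and 64 in the HSALR libraries (49.3 to 81.7). The 3 control mice per group limit every comparison with control mice.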
